A study of Mus musculus with 8 samples.

Results

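The genes described here are 34 genes of sterol and fatty acid synthesis, taken by symbol from tables that list 12133 genes in vitro and 12665 in vivo. The symbols were chosen by pathway, but with earlier results of these data known, so shares set beside all genes are descriptions. They are 8 enzymes that lead from acetyl-CoA to squalene (Hmgcs1, Mvk, Pmvk, Mvd, Idi1, Fdps, Fdft1 and Acat2), 10 that lead from squalene to cholesterol (Sqle, Lss, Cyp51, Tm7sf2, Msmo1, Nsdhl, Hsd17b7, Ebp, Sc5d and Dhcr7), 5 genes of sterol sensing (Srebf1, Srebf2, Scap, Insig1 and Insig2), 7 of fatty acid synthesis (Fasn, Acaca, Acly, Acss2, Scd1, Scd2 and Elovl6) and 4 of sterol transport and efflux (Stard4, Abca1, Abcg1 and Nr1h2). All 34 were analysed in vivo and 33 in vitro, where Scd1 was not analysed. Levels are given as deposited FPKM, fragment counts scaled for transcript length and library size, so they can be compared between genes. Genes were tested where FPKM was at least 1 in at least 2 libraries of a system, and 32 of the 34 passed in each system. Abca1 was below that level in vitro, and Idi1 and Fdps were below it in vivo.

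RNA was sequenced from thymocytes of mice that all carried loxP-flanked alleles of Bcl6 (Bcl6fl/fl), a zinc-finger transcriptional repressor. The control mice, labelled WT, had no Cre, and the others, labelled KO, carried Cd4cre, whose Cd4 elements switch on Cre in double-positive thymocytes. In the in vitro system, sorted CD4+CD8+ double-positive cells were cultured for 24 h with antibodies to CD3 and CD28, at 8 µg/ml of each, and those cells found double-negative afterwards were sorted. In the in vivo system, CD4-CD8-CD5+TCRb+ thymocytes, called agonist precursors in the labels, were sorted without culture. Each of the 4 groups had 2 libraries, and no age or sex is stated in the labels. Whether replicates were separate animals or cultures is not stated, and p-values then reflect no more than the spread of these libraries, which could be technical. Novogene prepared the in vitro libraries and BGI Genomics the in vivo ones, so cell source, culture and provider cannot be told apart in any contrast of the systems.

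Cholesterol is built from acetyl-CoA through mevalonate, squalene and lanosterol, and fatty acids are built from the same acetyl-CoA by way of malonyl-CoA. The transcription factors SREBP-1 and SREBP-2 (Srebf1 and Srebf2) wait in the endoplasmic reticulum as membrane-bound precursors. When sterols are scarce, Scap escorts them to be cleaved and they switch on most enzymes of both pathways; when sterols are plentiful, the Insig proteins hold Scap back, and LXR receptors such as LXRβ (Nr1h2) switch on the efflux pumps Abca1 and Abcg1. T cells are known to raise sterol and fatty acid synthesis after receptor stimulation, when they grow and need membrane.

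At sterol enzyme promoters, SREBP binds a sterol regulatory element beside boxes for the factors NF-Y and Sp1, so the windows before the start sites were searched on both strands. RefSeq (build GRCm38.p6, the assembly also called mm10) gave 35 windows for 27 of the 34 genes, each running from 250 bases before a start site to 50 after it. The sequences below are the 250 bases before the start of the 5 genes that fell in vitro and whose RefSeq start lay within 50 bases of the GENCODE gene start, and they are shown because these genes fell together. Capitals mark the NF-Y box CCAAT or its complement, and the sterol regulatory element core TCACNCCAC.
Hmgcs1: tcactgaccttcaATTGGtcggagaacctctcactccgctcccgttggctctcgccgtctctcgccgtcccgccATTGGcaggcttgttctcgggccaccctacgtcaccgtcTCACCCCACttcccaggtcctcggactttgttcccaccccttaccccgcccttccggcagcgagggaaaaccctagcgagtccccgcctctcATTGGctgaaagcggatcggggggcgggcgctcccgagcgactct
Pmvk: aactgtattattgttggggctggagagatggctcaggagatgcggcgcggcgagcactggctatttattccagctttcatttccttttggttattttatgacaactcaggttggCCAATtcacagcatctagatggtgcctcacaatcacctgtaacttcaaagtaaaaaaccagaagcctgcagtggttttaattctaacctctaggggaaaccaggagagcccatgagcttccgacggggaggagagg
Cyp51: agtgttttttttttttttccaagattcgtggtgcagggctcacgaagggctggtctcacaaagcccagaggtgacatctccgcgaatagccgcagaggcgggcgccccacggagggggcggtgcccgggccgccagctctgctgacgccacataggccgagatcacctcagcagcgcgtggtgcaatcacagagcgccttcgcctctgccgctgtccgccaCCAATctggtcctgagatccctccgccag
Hsd17b7: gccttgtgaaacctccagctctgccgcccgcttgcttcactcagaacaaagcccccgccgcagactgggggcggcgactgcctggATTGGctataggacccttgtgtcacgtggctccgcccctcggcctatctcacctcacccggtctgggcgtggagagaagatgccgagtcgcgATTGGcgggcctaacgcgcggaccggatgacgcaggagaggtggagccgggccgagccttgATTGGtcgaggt
Fasn: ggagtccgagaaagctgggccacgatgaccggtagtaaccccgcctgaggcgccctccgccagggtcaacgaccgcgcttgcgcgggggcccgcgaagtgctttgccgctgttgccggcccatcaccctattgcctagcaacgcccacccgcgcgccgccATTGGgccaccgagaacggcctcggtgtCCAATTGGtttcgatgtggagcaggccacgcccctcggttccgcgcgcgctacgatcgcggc
The Hmgcs1 stretch is chr13:119690101-119690350 on the plus strand, and that of Pmvk, the first of its 2 windows, is chr3:89454291-89454540 on the plus strand. On the minus strand lie the stretches of Cyp51 (chr5:4104698-4104947), Hsd17b7 (chr1:169969206-169969455) and Fasn (chr11:120824548-120824797). In GENCODE the gene starts 28 bases downstream of the RefSeq start for Hmgcs1, 49 upstream for Cyp51, 36 upstream for Hsd17b7 and at the same base for Pmvk and Fasn. The printed bases therefore lie outside the annotated gene, apart from those last 49 of Cyp51 and 36 of Hsd17b7.

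Of the 27 genes with a window, Hmgcs1 was the only one with a match to the sterol regulatory element core; Sqle, Fdft1, Fdps, Abcg1, Stard4, Scd1 and Scd2 had no window and were not searched. The Hmgcs1 match lay at -137 from its start, with NF-Y boxes at -237, -176, -45 and 11. Hsd17b7 had NF-Y boxes at -165, -73 and -12, Cyp51 had one at -29, Pmvk had one at -136, and Fasn had boxes at -90, -62 and -59, of which the last overlap. Outside the printed set, Idi1 had NF-Y boxes at -45 and -14 and Msmo1 at -160, -96 and -55. Genes that did not fall had such boxes too, among them Mvk with 5 and Nsdhl with 4. Acaca, which fell, had none in its window, which lay 65766 bases downstream of its GENCODE start. The NF-Y box was present in 22 of the 35 windows (62.9%) and in 14 of 18 windows of the sterol enzymes (77.8%), against 37.4% of all 32851 RefSeq windows of the same length and 37.9% of those of the genes tested. For the genes that fell in vitro it was in 7 of 9 windows (77.8%), the same share as for the sterol enzymes. The sterol regulatory element core was in 1 of 35 (2.86%), against 1.24% of all windows and 1.15% of those of the genes tested. Its shorter form CACNCCAC was in 3 of 35 (8.57%), those of Hmgcs1, Acat2 (-181 and -53) and Insig1 (-9). That form was in 6.24% of all windows and 6.22% of those of the genes tested. The Sp1 box GGGCGG was in 26 (74.3%), against 63.3% in the genes tested, and the E-box CACGTG in 7 (20%), against 10.3%. The core TTCNNNGAA, a palindrome that BCL6 and STAT factors can bind, was in 1 window of the 35 (2.86%), that of Ebp at -85. It was in 8.30% of all windows and 6.82% of those of the genes tested. A match is a run of letters and was not tested as a binding site. The map of motif matches along the windows gives every position.

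**Figure D1:**
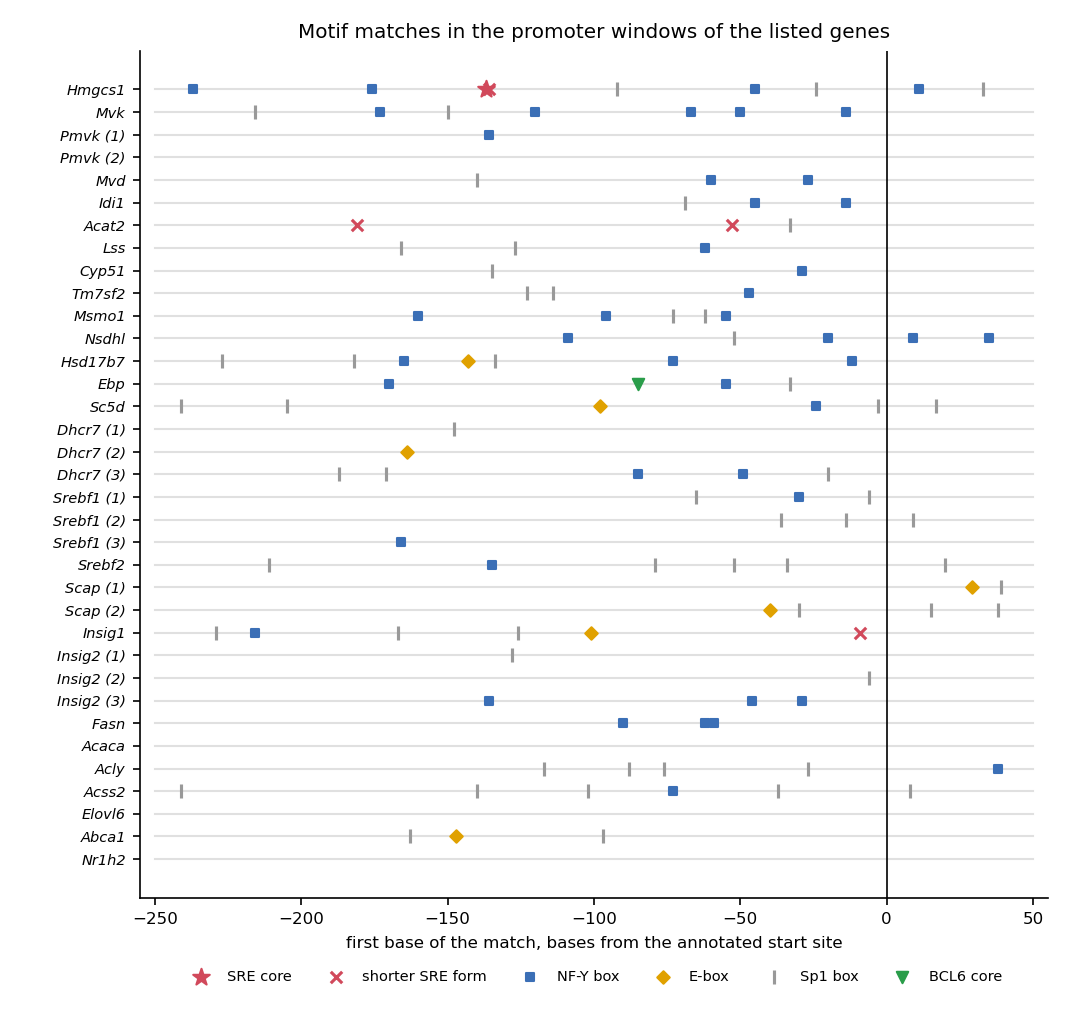
Motif matches in the 35 promoter windows of 27 genes, by distance in bases from the RefSeq start site (vertical line), with 1 row per window. The NF-Y box recurs in the rows of the sterol enzymes at the top and is in 14 of their 18 windows; the sterol regulatory element core appears once, in Hmgcs1, and the BCL6 core once, in Ebp.

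The total count per library ranged from 14754440 to 23975636. Bcl6 itself went against the label in vitro, with FPKM of 24.9 and 21.9 with the WT label against 64.6 and 61.0 with the KO label (log2 fold change 1.45, SE 0.09; edgeR adjusted p = 1.53e-06), and in vivo it gave 11.5 and 13.9 against 8.81 and 14.4 (-0.14, SE 0.23; edgeR adjusted p = 0.882). Counts per gene pool the deleted exons with the others, so Bcl6 does not check the labels, and directions are given throughout for the KO label against the WT label, whatever the true genotype. T cell markers were high in all 8 libraries, with Cd3e at FPKM 88.8 to 123 and Lck at 235 to 322. In GENCODE (mm10) the spans of Fdft1, Cyp51, Srebf1 and Acss2 overlap genes of the opposite strand (Ctsb, Akap9, Rai1, and Gss with Ggt7), and that of Tm7sf2 overlaps Vps51. No source used here states the strand setting of the counting, so reads in those overlaps cannot be told apart.

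The in vitro comparison asks how the labelled loss of BCL6 changes stimulated double-positive thymocytes that turn double-negative. In the libraries labelled KO, 9 of the 32 tested genes fell and 2 rose. Those that fell were 7 sterol enzymes (Hmgcs1, Pmvk, Idi1, Sqle, Cyp51, Msmo1 and Hsd17b7) and 2 enzymes of fatty acid synthesis (Fasn and Acaca). They fell to between 0.699 (Msmo1) and 0.828 (Hmgcs1) of the level under the WT label. Those that rose were Acss2, which makes acetyl-CoA from acetate, and the efflux pump Abcg1. The test was edgeR's quasi-likelihood test on counts with Benjamini-Hochberg adjustment over all genes tested, with n = 2 per group, and "rose" and "fell" mean an adjusted p under 0.05. In that comparison 17.7% of all 9658 genes tested fell and 20.1% rose, so the 28.1% of these genes that fell lies above the background and the 6.25% that rose below it. The median log2 fold change of the 32 genes was -0.14, with 23 of them below 0, against a median of -0.00 and 50.3% below 0 over all genes tested. Both libraries labelled KO lay below both labelled WT for 18 of the 32 and above them for 4, against 38.6% and 32.5% of all genes.

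**Figure D2:**
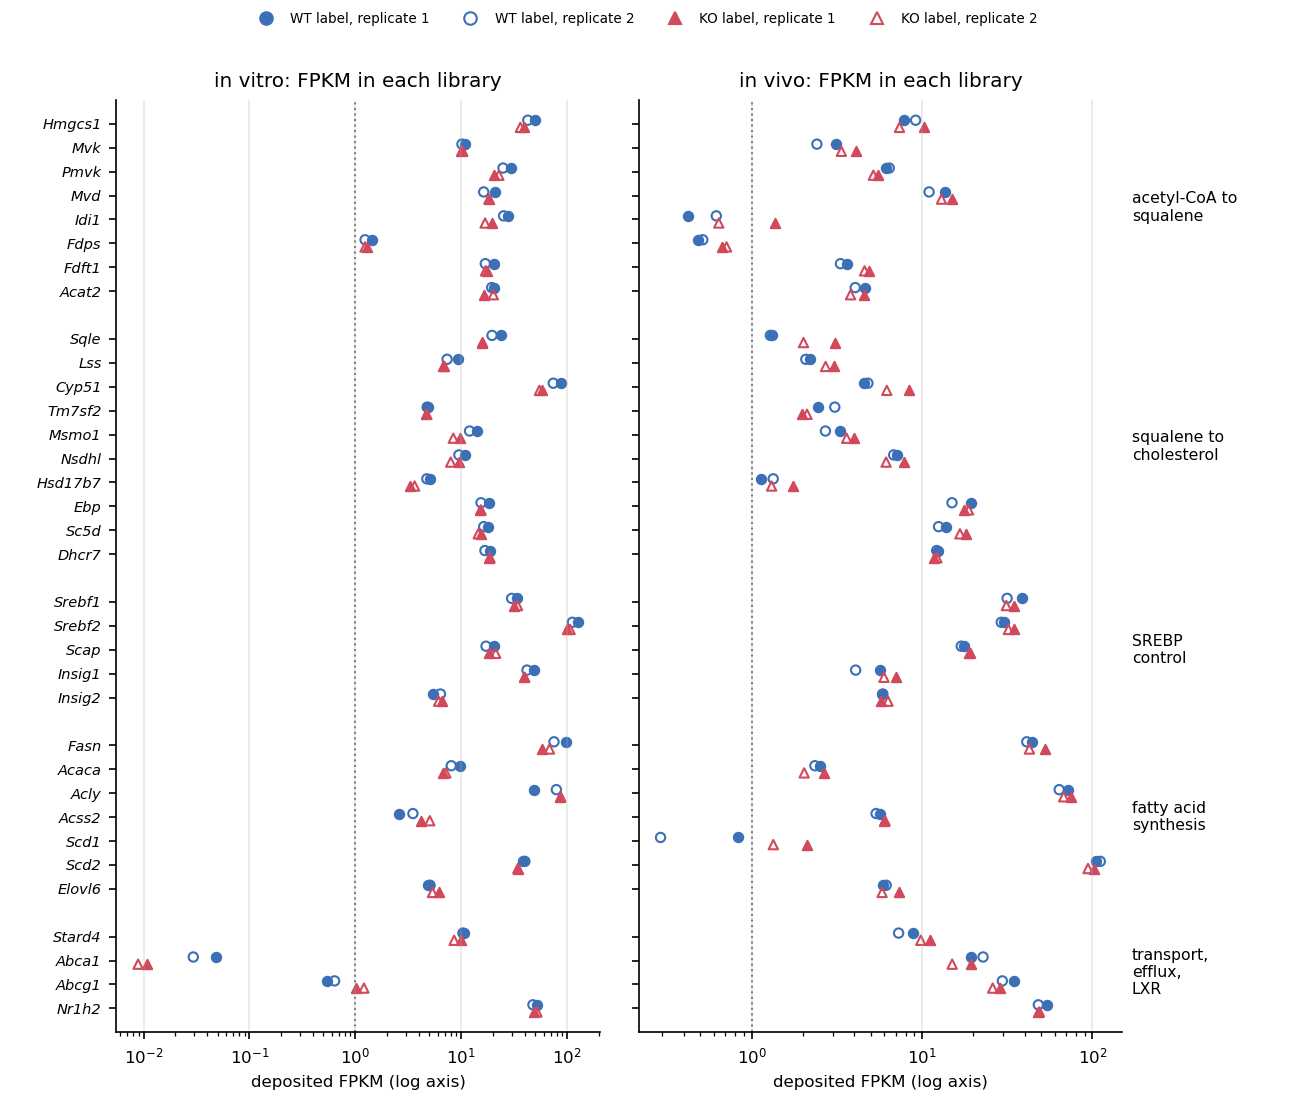
Deposited FPKM of each gene in each library on a log axis, in vitro on the left and in vivo on the right; circles are libraries labelled WT and triangles those labelled KO, filled for replicate 1 and open for replicate 2, and the dotted line marks FPKM 1. In vitro the triangles of Cyp51 (54.7 and 57.3) lie left of its circles (74.0 and 87.4), and in vivo they lie right of them (6.21 and 8.44 against 4.55 and 4.81).

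Among the enzymes from acetyl-CoA to squalene, 3 of 8 fell in vitro and all 8 had a log2 fold change below 0. Hmgcs1, the synthase that makes HMG-CoA, had FPKM of 49.9 and 42.5 with the WT label against 39.0 and 36.2 with the KO label (log2 fold change -0.27, SE 0.09; edgeR adjusted p = 0.0390). Pmvk, which adds the next phosphate to phosphomevalonate, had 29.3 and 24.8 against 20.6 and 22.7 (-0.30, SE 0.11; edgeR adjusted p = 0.0430). Idi1, the isomerase that makes dimethylallyl diphosphate, had 27.5 and 25.1 against 19.5 and 16.8 (-0.51, SE 0.10; edgeR adjusted p = 0.00201). For all 3 the libraries labelled KO lay below both labelled WT, and the gap was widest for Idi1. Idi1 has 3 near-identical pseudogene copies that could take or give reads, so its value is uncertain, and the same limit holds for Fdft1, which has 1 such copy, and for Acat2, which has a near-identical gene, Acat3. Fdft1, squalene synthase, had 20.5 and 16.9 against 17.6 and 17.0 (-0.09, SE 0.10; edgeR adjusted p = 0.522), and its groups overlapped. Mvk, Mvd, Fdps and Acat2 had log2 fold changes from -0.11 to -0.01, did not pass and overlapped between groups. Their FPKM ran from 1.24 for Fdps, which has 5 pseudogene copies, to 20.8 for Mvd.

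Between squalene and cholesterol, 4 of 10 enzymes fell and 9 of 10 were below 0. Sqle (chromosome 15, 59315077 to 59331192, plus strand of mm10), the epoxidase that is a rate-limiting step of the later pathway, had FPKM of 23.7 and 19.5 with the WT label against 15.8 and 15.9 with the KO label (log2 fold change -0.42, SE 0.10; edgeR adjusted p = 0.00582). Cyp51 (chromosome 5, 4081145 to 4104746, minus strand), the lanosterol demethylase and the most abundant sterol enzyme here, had 87.4 and 74.0 against 57.3 and 54.7 (-0.50, SE 0.10; edgeR adjusted p = 0.00206). Msmo1, which oxidises the methyl groups that are then removed, had 14.2 and 11.98 against 9.63 and 8.41 (-0.52, SE 0.11; edgeR adjusted p = 0.00324). For these 3 genes, of squalene oxidation and lanosterol demethylation, both libraries labelled KO lay below both labelled WT. Hsd17b7, the ketosteroid reductase of the same demethylation step, had 5.04 and 4.74 against 3.27 and 3.63 (-0.48, SE 0.11; edgeR adjusted p = 0.00668). Lss, which closes the ring to form lanosterol, had 9.28 and 7.36 against 6.73 and 6.93 (-0.26, SE 0.11; edgeR adjusted p = 0.0790), and Sc5d, a desaturase near the end, had 17.8 and 16.3 against 15.3 and 14.5 (-0.17, SE 0.09; edgeR adjusted p = 0.148). For Lss and Sc5d the libraries labelled KO were the lower ones, but the differences did not pass. Tm7sf2, Nsdhl, Ebp and Dhcr7, which reduce, demethylate or isomerise later intermediates, had log2 fold changes from -0.21 to 0.08 and did not pass.

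None of the 5 genes of sterol sensing passed in vitro. Srebf2, which encodes SREBP-2 and was the most abundant of them, had FPKM of 126 and 112 with the WT label against 99.9 and 107 with the KO label (log2 fold change -0.18, SE 0.10; edgeR adjusted p = 0.197). Srebf1, for SREBP-1, had 33.8 and 29.9 against 31.7 and 34.04 (0.07, SE 0.09; edgeR adjusted p = 0.549). Scap, the escort protein, had 20.2 and 17.1 against 18.1 and 21.1 (0.10, SE 0.10; edgeR adjusted p = 0.484). The groups overlapped for Srebf1 and Scap and did not overlap for Srebf2. Insig1, the retention protein that is itself a target of SREBP, had 48.5 and 41.8 against 39.4 and 39.8 (-0.16, SE 0.09; edgeR adjusted p = 0.168), with both libraries labelled KO lower. Insig2 had a log2 fold change of 0.15 and overlapping groups.

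The 6 tested genes of fatty acid synthesis went both ways in vitro, with 2 that fell and 1 that rose. Fasn, fatty acid synthase, had FPKM of 97.4 and 75.2 with the WT label against 58.5 and 68.1 with the KO label (log2 fold change -0.42, SE 0.13; edgeR adjusted p = 0.0272). Acaca, which makes the malonyl-CoA that Fasn uses and has 1 pseudogene copy that makes its value uncertain too, had 9.69 and 8.05 against 6.74 and 7.16 (-0.33, SE 0.10; edgeR adjusted p = 0.0202). Acss2 had 2.56 and 3.50 against 4.14 and 5.05 (0.64, SE 0.14; edgeR adjusted p = 0.00525). So Fasn and Acaca were lower in both libraries labelled KO while the acetate-activating enzyme Acss2 was higher in both. Acly, which makes acetyl-CoA from citrate, lay on the same side as Acss2 without passing, at 48.9 and 79.1 against 85.34 and 87.003 (0.46, SE 0.17; edgeR adjusted p = 0.0548), and its WT libraries differed more from each other than the second of them did from either KO library. Scd2, a desaturase, and Elovl6, an elongase, had log2 fold changes of -0.17 and 0.23 and did not pass. Scd2 is near-identical to Scd1 in part, and Elovl6 has 1 pseudogene copy.

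In sterol transport and efflux, Abcg1 (chromosome 17, 31057675 to 31117988, plus strand) rose in vitro. Its FPKM was 0.536 and 0.637 with the WT label against 1.004 and 1.21 with the KO label (log2 fold change 0.95, SE 0.20; edgeR adjusted p = 0.00309), so it passed the expression filter only through the libraries labelled KO and had to differ to be tested. Abca1, the other efflux pump, was near absent at FPKM 0.0482 and 0.0295 against 0.0109 and 0.00889. Over both libraries of a label its counts were 17 and 4, a ratio of 4.05 after scaling for depth (exact 95% binomial interval 1.32 to 16.5, counting error only), and it was not tested. Thus both pumps were at low levels in the cultured cells, Abcg1 higher and Abca1 lower in counts with the KO label. Stard4, a carrier that moves sterol between membranes, had 10.7 and 10.4 against 9.87 and 8.57 (-0.17, SE 0.10; edgeR adjusted p = 0.192). Nr1h2 had FPKM from 47.5 to 52.0 in the 4 libraries and a log2 fold change of 0.03.

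**Figure D3:**
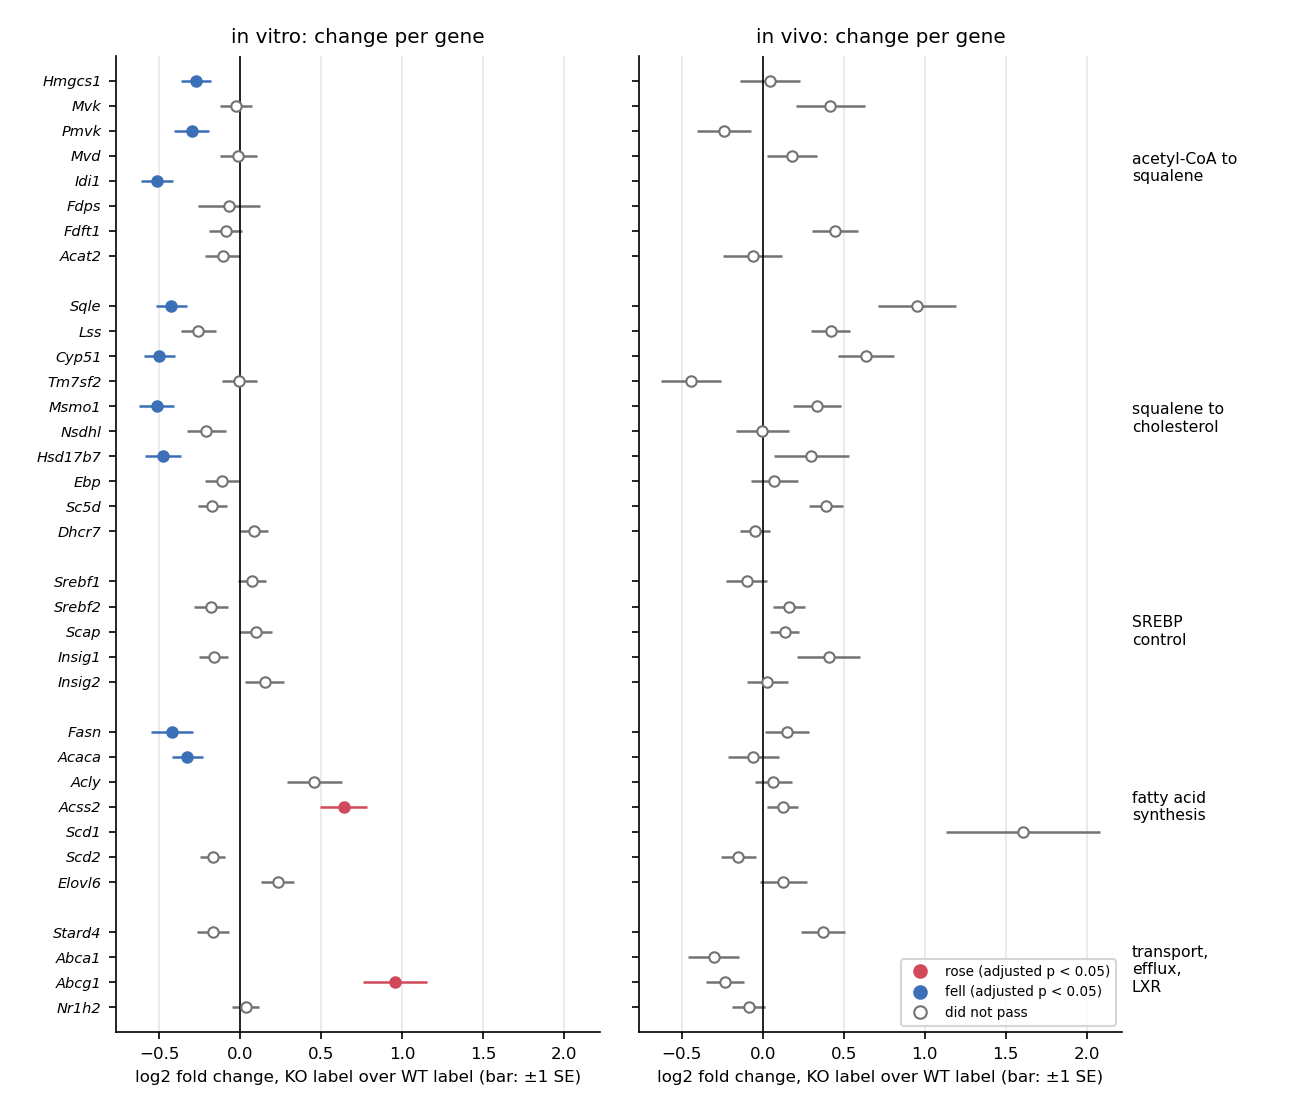
Log2 fold change of each tested gene, libraries labelled KO over those labelled WT, with bars of 1 SE (n = 2 per group), in vitro on the left and in vivo on the right. In vitro 9 filled blue points lie below 0 and 2 filled red points above it; in vivo no point is filled, and Sqle (0.95) and Scd1 (1.61) lie farthest to the right.

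One library weighs on the in vitro count. WT replicate 1 had a higher FPKM than WT replicate 2 for 26 of the 32 genes, against 51.1% of all genes tested, and it was the highest of the 4 libraries for 24 of them, against 32.9%. Without it, 4 of the 9 calls of a fall were left (Idi1, Cyp51, Msmo1 and Hsd17b7), and the other 5 missed the threshold. That is 12.5% of the 32 genes, beside 11.5% of all genes tested that fell in the same fit, so the share was then near the background. The log2 fold changes of the 5 genes lost were then -0.28 for Sqle (edgeR adjusted p = 0.0881), -0.23 for Fasn (adjusted p = 0.214), -0.19 for Acaca (adjusted p = 0.261), -0.17 for Pmvk (adjusted p = 0.380) and -0.16 for Hmgcs1 (adjusted p = 0.364). The median of the 32 genes was then -0.06. Without KO replicate 1, 5 genes fell (15.6%, beside 13.2% of all genes), and the adjusted p rose to 0.0509 for Hmgcs1, 0.0916 for Acaca, 0.183 for Fasn and 0.194 for Pmvk, and without KO replicate 2 it was 0.131 for Hmgcs1. With any 1 of the 4 libraries left out, the log2 fold change stayed between -0.62 and -0.41 for Idi1 and between -0.61 and -0.38 for Cyp51. It stayed between -0.63 and -0.39 for Msmo1, between -0.56 and -0.41 for Hsd17b7 and between 0.42 and 0.88 for Acss2. Abcg1 stayed between 0.81 and 1.08, but it had to differ to be tested, so this cannot be read as support. Of the other markers, the 2 B cell genes analysed in vitro (Cd79a and Cd79b) summed to FPKM 2.95 and 2.85 with the WT label against 5.06 and 5.76 with the KO label, the 4 myeloid genes to 51.8 and 48.4 against 45.6 and 48.8, and the 4 erythroid genes to 2.14 and 13.9 against 3.94 and 14.6. The 4 genes analysed of 8 on the thymic stroma list summed to 15.7 and 17.5 against 29.8 and 28.4. Nearly all of that came from the adhesion molecules Pecam1 (log2 fold change 0.87, edgeR adjusted p = 5.77e-05) and Epcam (0.74, edgeR adjusted p = 0.00241), which both rose. Psmb11 and Col1a1 stayed under FPKM 1, and Krt5, Krt8, Foxn1 and Pdgfra were not analysed. Sox13 was at FPKM 0.142 to 0.331. The 6 double-positive genes summed to 27.2 and 32.2 against 34.02 and 30.7, but among them Cd4 (0.72) and Cd8b1 (0.76) rose and Dntt (-1.01) and Cd8a (-0.42) fell. Rag1 and Rag2 stayed under FPKM 1. No marker analysed was at 0 in vitro. Their part in the result was not tested.

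In vivo the same question was put to agonist precursors that had not been cultured. None of the 32 tested genes rose or fell under the KO label by edgeR, against 0.284% of all 10227 genes that rose and 0.821% that fell. The values leaned the other way from those in vitro: the median log2 fold change was 0.12, with 21 of 32 above 0, against a median of -0.00 over all genes. Both libraries labelled KO lay above both labelled WT for 13 of the 32 genes and below them for 4, against 22.0% and 21.4% of all genes. At an unadjusted p under 0.05 there were 7 genes (Fdft1, Sqle, Lss, Cyp51, Sc5d, Scd1 and Stard4), all higher under the KO label. That is 7 of 32, beside 14.1% of all genes in either direction and 7.21% that were higher. Scd1 passed the expression filter only through the libraries labelled KO, so it had to be higher under that label to be tested. Its place in this count, and its calls by DESeq2 and with a replicate block, cannot be read as support. DESeq2 passed 1 gene, Scd1 (2.54% of all genes rose by DESeq2), and limma on log2(FPKM + 1) passed 0. A fit over all 8 libraries passed 3 of 30, Sqle (adjusted p = 0.0244), Cyp51 (0.0399) and Sc5d (0.0474), all higher, where 1.56% of all genes rose. A replicate block passed 6 (Sqle, Lss, Cyp51, Sc5d, Scd1 and Stard4), or 18.8% of the 32, where 5.94% of all genes rose, but the labels do not establish what a replicate number marks. These are bulk samples, in which fewer cells of a type and less RNA per cell cannot be told apart.

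Among the sterol enzymes the highest in vivo log2 fold changes were those of Sqle and Cyp51. Sqle had FPKM of 1.33 and 1.29 with the WT label against 3.07 and 2.02 with the KO label (log2 fold change 0.95, SE 0.24; edgeR adjusted p = 0.143). Cyp51 had 4.55 and 4.81 against 8.44 and 6.21 (0.64, SE 0.17; edgeR adjusted p = 0.162). Lss had 2.19 and 2.08 against 3.03 and 2.72 (0.42, SE 0.12; edgeR adjusted p = 0.180). In each of these the libraries labelled KO lay above both labelled WT, and replicate 1 was the higher of them. Sc5d had 13.9 and 12.5 against 18.1 and 16.7 (0.39, SE 0.10; edgeR adjusted p = 0.163), and Fdft1 had 3.61 and 3.32 against 4.92 and 4.60 (0.45, SE 0.14; edgeR adjusted p = 0.216). Msmo1 had 3.30 and 2.71 against 4.01 and 3.61 (0.33, SE 0.15; edgeR adjusted p = 0.404). Hsd17b7 had 1.14 and 1.34 against 1.76 and 1.31 (0.30, SE 0.23; edgeR adjusted p = 0.681) and was the one of these 7 whose groups overlapped. Not every sterol enzyme leaned upward: Tm7sf2 had a log2 fold change of -0.44 and Pmvk, at 6.17 and 6.42 against 5.54 and 5.18, of -0.24 (SE 0.17; edgeR adjusted p = 0.634). Hmgcs1 had 7.88 and 9.17 against 10.3 and 7.37 (0.04, SE 0.18; edgeR adjusted p = 0.964), with overlapping groups. Idi1, below the filter, had 0.426 and 0.621 against 1.36 and 0.642, so its high value was that of KO replicate 1 alone. The other 7 enzymes of the 2 groups (Mvk, Mvd, Fdps, Acat2, Nsdhl, Ebp and Dhcr7) had FPKM from 0.483 to 19.3, and those tested had log2 fold changes from -0.06 to 0.42.

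None of the genes of sterol sensing passed in vivo. Srebf2 had FPKM of 30.2 and 29.2 with the WT label against 34.7 and 32.1 with the KO label (log2 fold change 0.16, SE 0.10; edgeR adjusted p = 0.571), and Srebf1 had 38.4 and 31.6 against 34.5 and 31.2 (-0.10, SE 0.13; edgeR adjusted p = 0.836). Scap had 17.5 and 17.0 against 18.9 and 19.3 (0.14, SE 0.09; edgeR adjusted p = 0.607). Insig1 had 5.64 and 4.08 against 6.99 and 5.98 (0.41, SE 0.20; edgeR adjusted p = 0.439). Both KO libraries were the higher ones for Srebf2, Scap and Insig1, but no difference passed, and Insig2 had a log2 fold change of 0.03.

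In fatty acid synthesis, Scd1 had the highest in vivo value of all 32 genes. This desaturase had FPKM of 0.831 and 0.292 with the WT label against 2.12 and 1.34 with the KO label (log2 fold change 1.61, SE 0.48; edgeR adjusted p = 0.191; DESeq2 1.62, adjusted p = 0.0388), and it passed the expression filter only through the libraries labelled KO. Scd1 has a near-identical gene, Scd3, and is near-identical in part to the far more abundant Scd2, so the reads of Scd1 are uncertain. Fasn had 44.1 and 41.2 against 52.4 and 42.7 (0.15, SE 0.13; edgeR adjusted p = 0.735) and Acaca 2.52 and 2.35 against 2.68 and 2.03 (-0.06, SE 0.16; edgeR adjusted p = 0.944). Their groups overlapped, unlike in vitro. Acss2 had 5.65 and 5.38 against 6.01 and 6.06 (0.12, SE 0.10; edgeR adjusted p = 0.690). Acly, Scd2 and Elovl6 had log2 fold changes from -0.15 to 0.13; Scd2 was the most abundant of the 34 genes in vivo, at FPKM 94.1 to 111.

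The efflux pumps, near or below FPKM 1 in cultured cells, were well expressed in vivo. Abcg1 had FPKM of 34.4 and 29.6 with the WT label against 28.8 and 26.0 with the KO label (log2 fold change -0.23, SE 0.12; edgeR adjusted p = 0.470). Abca1 had 19.4 and 22.8 against 19.4 and 15.0 (-0.30, SE 0.16; edgeR adjusted p = 0.484). Both pumps leaned downward without passing, and only Abcg1 had groups that did not overlap. Stard4 had 8.83 and 7.29 against 11.2 and 9.83 (0.37, SE 0.14; edgeR adjusted p = 0.284), with both libraries labelled KO higher, and Nr1h2 had a log2 fold change of -0.09.

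KO replicate 1 stood out among the in vivo libraries. It had the highest FPKM of the 4 for 19 of the 32 genes, against 24.9% of all genes tested. It was also highest for 7 of 8 myeloid markers, whose FPKM summed to 201 and 122 with the WT label against 378 and 212 with the KO label, and for all 6 B cell markers, which summed to 14.0 and 4.37 against 25.8 and 18.3. Much of the myeloid sum was Fcer1g (110 and 64.5 against 187 and 146). The groups overlapped for Lyz2, Csf1r, Cd68, Adgre1, Tyrobp and Cst3, and Cst3 leaned the other way (log2 fold change -0.07). The 6 double-positive markers summed to 48.2 and 72.2 against 102 and 130, and Sox13, the one marker of gamma delta T cells analysed, had 21.0 and 15.4 against 48.4 and 31.4. Among the double-positive markers, Rag1 (log2 fold change 2.26), Dntt (1.98) and Cd8b1 (1.34) were higher in both libraries labelled KO, without passing. Cd4 (0.30) and Cd8a (0.18) overlapped between groups and were lowest in KO replicate 1. The 3 genes analysed of the thymic stroma list summed to 22.0 and 26.5 against 20.3 and 20.5. Of these, Epcam (-0.73) and Pecam1 (-0.16) were below 0 without passing, while Col1a1, under FPKM 1, was higher in both libraries labelled KO. No marker analysed was at 0 in any in vivo library, and their part in the lipid gene values was not tested. Without KO replicate 1 the median of the 32 genes was 0.07 and without KO replicate 2 it was 0.20, and Sqle then gave 0.61 (edgeR adjusted p = 0.611) and 1.24 (edgeR adjusted p = 0.0365), the only call any left-out library produced in vivo.

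**Figure D4:**
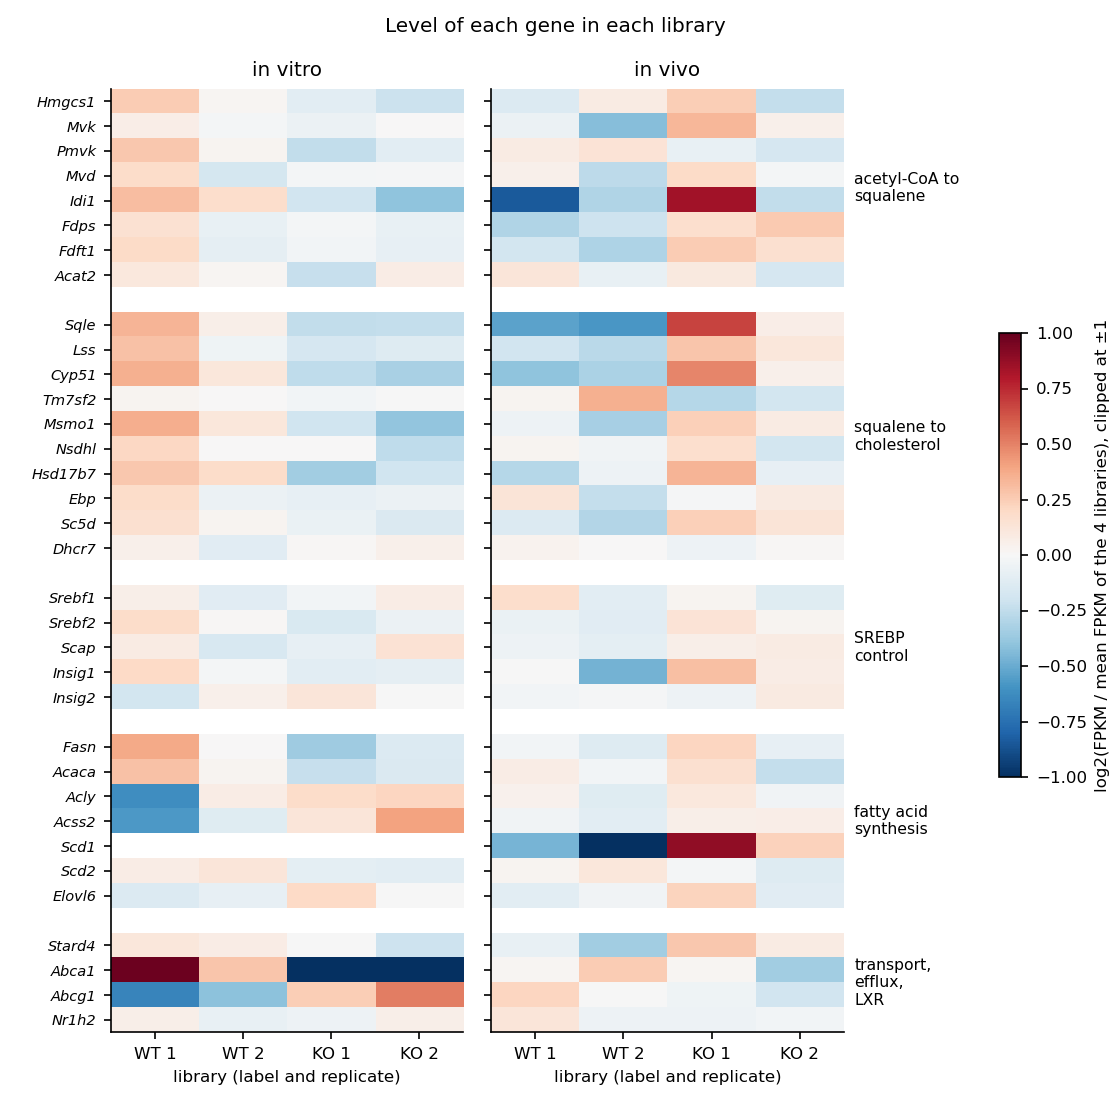
Level of each gene in each library as log2 of its FPKM over the mean of the 4 libraries of that system, coloured from blue (lower) to red (higher) and clipped at 1 in either direction; white rows are gaps between groups or a gene not analysed. The WT 1 column in vitro and the KO 1 column in vivo hold most of the red: 24 and 19 of 32 genes were highest there.

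The effect of the KO label was then compared between the systems over all 8 libraries, as the log2 fold change in vivo minus that in vitro. It differed for 9 of the 30 genes tested in both, against 16.7% of all 9364 genes, and the median difference of the 30 was 0.22 against -0.01 over all genes. For 8 of the 9 the effect was more positive in vivo: 6 of the 10 enzymes from squalene to cholesterol, squalene synthase and the carrier Stard4. Sqle differed most, by 1.39 (SE 0.25; edgeR adjusted p = 0.00516), from -0.42 in vitro and 0.95 in vivo, and Cyp51 by 1.16 (SE 0.20; edgeR adjusted p = 0.00442), from -0.50 and 0.64. Msmo1 followed with 0.87 (SE 0.19; edgeR adjusted p = 0.0123), Hsd17b7 with 0.80 (SE 0.24; edgeR adjusted p = 0.0432) and Lss with 0.70 (SE 0.17; edgeR adjusted p = 0.0218). These 5 act between squalene and the demethylated sterol and had log2 fold changes below 0 in vitro and above 0 in vivo. Tm7sf2 and Nsdhl, of the same stretch, were below 0 in both systems (-0.44 and -0.001 in vivo). Outside it, Sc5d, Stard4, Fdft1, Insig1, Srebf2 and Fasn, among others, were also below 0 in vitro and above 0 in vivo. Sc5d differed by 0.58 (SE 0.14; edgeR adjusted p = 0.0173), Stard4 by 0.56 (SE 0.17; edgeR adjusted p = 0.0452) and Fdft1 by 0.56 (SE 0.17; edgeR adjusted p = 0.0454). Abcg1 went the other way, by -1.17 (SE 0.20; edgeR adjusted p = 0.00433), having risen in vitro from FPKM under 1. It passed the in vitro filter only through the libraries labelled KO, so its place among the 9 cannot be read as support.

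For the other genes the difference did not pass. Insig1 gave 0.59 (SE 0.20; edgeR adjusted p = 0.0736), Fasn 0.59 (SE 0.21; edgeR adjusted p = 0.0821) and Srebf2 0.36 (SE 0.14; edgeR adjusted p = 0.112). Hmgcs1 gave 0.34 (SE 0.21; edgeR adjusted p = 0.310) and Acaca 0.29 (SE 0.19; edgeR adjusted p = 0.332). These 5, among them genes that fell in vitro, all lay above 0. Acss2 gave -0.49 (SE 0.20; edgeR adjusted p = 0.122), Srebf1 -0.15 (SE 0.16; edgeR adjusted p = 0.563), Scap 0.06 (SE 0.15; edgeR adjusted p = 0.824) and Pmvk 0.08 (SE 0.18; edgeR adjusted p = 0.806). The remaining 12 genes ran from -0.42 for Tm7sf2 to 0.46 for Mvk. Idi1, Fdps, Scd1 and Abca1 could not be compared because each was below the filter, or not analysed, in 1 system.

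**Figure D5:**
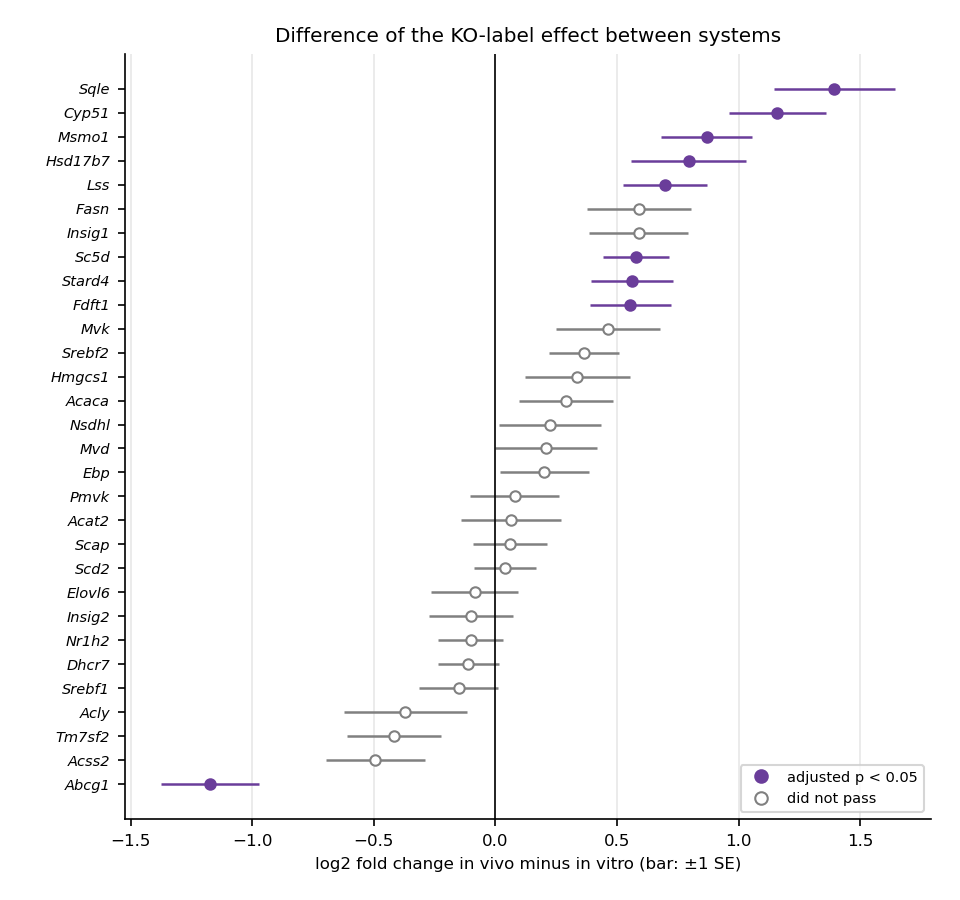
Difference of the log2 fold change under the KO label, in vivo minus in vitro, for the 30 genes tested in both systems, with bars of 1 SE and filled points at an adjusted p under 0.05. Sqle (1.39), Cyp51 (1.16) and Msmo1 (0.87) head the positive end, and Abcg1 (-1.17) stands alone at the negative end.

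Of the 9 calls of a difference, 6 were lost when one library or another was left out, and calls over all genes became fewer as well. With any 1 of the 8 libraries left out, the difference stayed between 1.05 and 1.68 for Sqle and between 0.91 and 1.37 for Cyp51. That of Abcg1 stayed between -1.30 and -1.02. However, Abcg1 had passed the in vitro filter only through the libraries labelled KO, so its difference cannot be read as support. Without in vitro WT replicate 1 the count fell to 3 of 30, beside a fall from 16.7% to 5.91% of all genes, and the other 6 missed the threshold with differences of 0.74 for Msmo1 (edgeR adjusted p = 0.0688), 0.76 for Hsd17b7 (adjusted p = 0.137), 0.53 for Lss (adjusted p = 0.101), 0.52 for Sc5d (adjusted p = 0.0968), 0.54 for Stard4 (adjusted p = 0.157) and 0.41 for Fdft1 (adjusted p = 0.196). It was 3 without in vitro KO replicate 2 (9.18% of all genes), 5 without in vitro KO replicate 1 (8.26%) and 4 without in vivo KO replicate 1 (9.06%), where Msmo1 passed with Sqle, Cyp51 and Abcg1. The median difference of the 30 genes was 0.10 without in vitro WT replicate 1 and 0.07 without in vivo KO replicate 1.

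The levels themselves differed between the systems, which is given as a description because the tables were normalized separately and the providers differed. Both in vivo libraries labelled WT lay below both in vitro ones for 20 of the 30 genes (42.9% of all genes tested in both) and above them for 4 (Acss2, Scd2, Elovl6 and Abcg1). The mean FPKM under the WT label was 17.2 times higher in vitro for Cyp51, 16.5 times for Sqle, 9.29 times for Insig1, 5.42 times for Hmgcs1 and 4.02 times for Srebf2. For Srebf1 the ratio was 0.910 and for Scap 1.08. The ratio was 0.363 for Scd2 and 0.0183 for Abcg1.

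Neighbouring pathways were taken from further lists of genes. Of the 17 genes of the isoprenoid branch, which turn mevalonate products into protein anchors, ubiquinone and dolichol, 3 fell in vitro and none rose: Rabggtb, a geranylgeranyl transferase subunit (log2 fold change -0.61, SE 0.09), Trit1, a tRNA modifier (-0.42, SE 0.11), and Zmpste24, a protease that matures prenylated proteins (-0.31, SE 0.10). The next smallest adjusted p there was that of Pdss1 (0.111). In vivo none of the 17 passed, and Pdss1, Fnta, Dhdds and Nus1 had the smallest adjusted p, from 0.602 to 0.687. Of 20 tested partners of SREBP and LXR, 7 rose and 3 fell in vitro. Those with the smallest adjusted p were the LXR target Arl4c (0.88, SE 0.11), the LXR partner Rxra (0.83, SE 0.12), the ubiquitin ligase Rnf145 (0.49, SE 0.08) and the transporter Abca7 (0.44, SE 0.08), and all 4 rose. In vivo none passed. The smallest adjusted p was that of Lpcat3, a phospholipid-remodelling LXR target (-0.49, SE 0.10; edgeR adjusted p = 0.0962), followed by Rxra (0.47), Arl4c (0.36) and Rnf145 (-0.19).

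Of 24 tested genes of sterol trafficking and storage, 8 rose and 2 fell in vitro. Npc1, which exports cholesterol from lysosomes, rose by 0.65 (SE 0.09) and Lbr, a lamina receptor with sterol reductase activity, by 0.66 (SE 0.10). Gramd1b, which carries sterol from the plasma membrane, fell, with a log2 fold change of -0.64 (SE 0.10). In vivo none of 25 passed, and Lrp8, Lbr, Soat2 and Stard10 had the smallest adjusted p, from 0.122 to 0.315. Of 28 tested genes of fatty acid extension and esterification, 2 rose and 7 fell in vitro. Lpin1, a phosphatidate phosphatase, rose by 1.07 (SE 0.09), whereas Hsd17b12 (-0.54, SE 0.08) and Acsl3 (-0.61, SE 0.10), of fatty acid elongation and activation, and the triglyceride synthase Dgat2 (-1.28, SE 0.20) fell. In vivo none of 26 passed, and Fads2, Tecr, Elovl5 and Acsl5 had the smallest adjusted p, from 0.160 to 0.399.

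Fatty acid oxidation, the route opposite to synthesis, had 7 of 26 genes that rose and 2 that fell in vitro. Those that rose include the thiolase Acaa2 (0.66, SE 0.09), the carnitine transferase Cpt1a that admits fatty acids to mitochondria (0.59, SE 0.09) and the oxidase Acox3 (0.42, SE 0.09). In vivo none of 26 passed, and Acadl (-0.50), Acads (-0.42), Acaa1a (-0.23) and Hsd17b4 (-0.20) had the smallest adjusted p, from 0.0950 to 0.443. These counts stand beside the 20.1% of all genes that rose and the 17.7% that fell in vitro. The median log2 fold change in vitro was -0.16 for the isoprenoid branch, 0.12 for the SREBP and LXR partners, 0.17 for sterol trafficking, -0.13 for fatty acid extension and 0.05 for fatty acid oxidation, beside -0.14 for the 32 genes of synthesis.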

How the data were processed

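Per the labels' protocols, TRIzol was used to extract RNA. Annotation and strand setting: not given in the sources used here. For each library the authors deposited a count and an FPKM per gene. Per the submitters' processing notes the tools were Bowtie2, RSEM, DESeq2, featureCounts, Subread and Trim Galore 0.4.4, and the build mm10, with no role stated for a tool. No gene listed had a mean count under 5, so rows had been filtered.

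Counts were tested with the quasi-likelihood test of edgeR 4.0.16 (R 4.3.3, TMM normalization), two-sided, on the 4 libraries of each system, for genes that reached FPKM 1 in 2 or more libraries (9658 in vitro, 10227 in vivo). P-values were adjusted by Benjamini-Hochberg over all genes tested, with a threshold of 0.05. Dividing the size of the log2 fold change by the square root of its F statistic gave the SE. A fit of all 8 libraries with a mean per group tested the difference of the KO effect between systems, for 9364 genes. Total counts were 14754440 to 23975636, edgeR's biological coefficient of variation was 0.0727 and 0.121 for the in vitro and in vivo fits, and no pair of replicates agreed within sampling noise (chi-square per degree of freedom 9.75 to 20.0).

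Each fit was tested on simulated data in which 200 genes changed. It recovered 100 of 100 genes changed 2-fold in vitro, 91 in vivo and 92 for the difference, and all 100 changed 4-fold in each. False calls numbered 13, 9 and 7 in the same order. Every simulated gene had the same spread, the common biological coefficient of variation of its fit, so recovery of more variable genes is not known. With the real in vivo counts, Rag1 (log2 fold change 2.26, edgeR adjusted p = 0.102) and Dntt (1.98, edgeR adjusted p = 0.0880) did not pass. The lack of calls among the listed genes in vivo therefore does not show that none of them changed 2-fold. Changes smaller than 2-fold were not simulated. Recovery is therefore not known for the sizes that fell in vitro, 0.699 (Msmo1) to 0.828 (Hmgcs1) of the WT level. In vivo the same holds for nearly all the sterol and fatty acid genes tested.

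The genes and lists were chosen with earlier results of these data known. All 34 genes are named, with values in every library for those past the threshold and for Srebf1, Srebf2, Scap, Insig1, Sqle, Fasn, Acaca, Abca1 and Abcg1. From each further list up to 4 genes with the smallest adjusted p in each system are named; some are not reported here. Near-identical copies are genes or pseudogenes whose GENCODE transcripts match at 90% identity or more over at least 500 bases. Motifs were counted in RefSeq windows by their letters. Alternatives were RLE and upper-quartile scaling, DESeq2 1.42.0, limma 3.58.1 on log2(FPKM + 1) and log2(FPKM + 0.1), no filter, FPKM of at least 5, a robust fit, all 8 libraries in one fit, a replicate block and each library left out. Where a group is left with 1 library, it is assumed to vary like the others.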

Additional observations from a re-analysis of the deposited data

Results flagged for a closer look

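The effect of the KO label, in vivo minus in vitro on the log2 scale, passed the edgeR test of the difference for 9 of the 30 genes tested in both systems. It was 1.39 for Sqle, 1.16 for Cyp51, 0.87 for Msmo1, 0.80 for Hsd17b7, 0.70 for Lss, 0.58 for Sc5d, 0.56 for Stard4 and 0.56 for Fdft1, all more positive in vivo, and -1.17 for Abcg1. Of these, 5 passed within the in vitro system (Sqle, Cyp51, Msmo1, Hsd17b7 and Abcg1) and none in vivo. With any 1 of the 8 libraries left out, Sqle kept a difference of 1.05 to 1.68, Cyp51 of 0.91 to 1.37 and Abcg1 of -1.30 to -1.02, each past the threshold. Abcg1 had passed the in vitro expression filter only through the libraries labelled KO, so its difference cannot be read as support.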

How the results depend on the processing

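The in vitro count of 9 genes that fell was 7 to 9 under the other scalings, tools and filters. With all 8 libraries in one fit it was 4 of 30 (13.3%), where Idi1 was not tested. That lies beside 14.3% of all genes in the same fit, so the share was then no higher than the background. The count also changed with a library left out. The count of 2 that rose was 1 (Acly) at FPKM of at least 5, where Abcg1 and Acss2 were not tested, 3 with RLE scaling or no filter, and 2 to 4 with a library left out. In vivo the count of 0 that rose was 1 with DESeq2, 3 with all 8 libraries in one fit, 6 with a replicate block, 0 to 1 with a library left out and 0 under the other alternatives, and 0 fell under any alternative. The 9 differences between systems were 3 at FPKM of at least 5, where 19 genes were tested. That is 15.8%, beside 19.2% of all genes in the same fit, so the share was then below the background. The count of differences was 3 to 10 with a library left out and 7 to 11 otherwise. Labels share replicate numbers without saying what they mark, and same-numbered libraries deviated with a correlation of -0.29 in vitro and 0.42 in vivo, so pairing was not established. With a replicate block, 3 rose and 7 fell in vitro, 6 rose and 0 fell in vivo, and 11 differed between systems, beside 17.6%, 15.1%, 5.94%, 4.61% and 18.8% of all genes in the same order. With the in vitro numbers crossed, an alternative chosen after seeing the data, 4 rose and 13 fell. The share of all genes in that fit is not given, so these counts have no background beside them. Of the 20 values past the threshold, 0 changed sign under an alternative; of the 74 others, 29 did under at least 1, among them Fdft1 in vitro and Hmgcs1 and Fasn in vivo. The cause of the changed counts was not tested. Low counts limit Abca1 in vitro and Idi1, Fdps and Scd1 in vivo.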
